A study of Mus musculus with 6 samples.

Results

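The cell cycle and DNA replication module consists of 35 genes fixed by name, and all 35 are listed among the 23415 genes of the deposited table. Of these, 25 were tested by the authors and the other 10 carry the mark NOTEST, which in a table of this layout stands for too few alignments. The tested share was 71.4% of the module, against 49.2% of all genes in the table. RNA was taken from livers of alkaline sphingomyelinase (alk-SMase, Enpp7) knockout mice and of wildtype mice, 3 of each, all labelled C57BL/6. Age and sex are not given in the labels used here, nor is the way the knockout was made, and the genotype was read from the first letter of the sample names. The design text speaks of intestine while every sample is labelled liver. The 10 hepatocyte markers summed to 30379 FPKM in knockout livers and 27551 FPKM in wildtype livers. Apoa1 alone supplied 16007 FPKM in knockout livers and 11662 FPKM in wildtype livers. Of the 9 tested hepatocyte markers, 2 were higher in knockout livers and 7 lower. Albumin is listed at 0 in both, with the mark HIDATA. In a table of this layout that mark stands for too many fragments, so the 0 is not a level. The 10 intestinal epithelium markers summed to 94.3 FPKM in knockout livers and 80.5 FPKM in wildtype livers, and 6 of them were not tested. Most of both sums came from Fabp2 and Tff3. Fabp2 was at 42.9 FPKM in knockout livers and 54.7 FPKM in wildtype livers. Tff3 was at 48.8 FPKM in knockout livers and 23.9 FPKM in wildtype livers (q = 0.0775 in the authors' deposited table). Enpp7 itself was not tested by the authors, so its value does not check the genotype labels. The comparison asks whether transcripts of cell division differ between livers of knockout mice and livers of wildtype mice.

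A cell enters the cycle when D-type cyclins with CDK4 or CDK6, and then cyclin E with CDK2, release E2F transcription factors from the retinoblastoma proteins. E2F factors induce the proteins that load the MCM helicase on replication origins and those that make deoxynucleotides, and a later wave of genes, read by the MuvB complex with B-MYB and FOXM1 through a promoter element called CHR, drives mitosis. Most hepatocytes of an adult liver are quiescent and many are polyploid, and they return to the cycle after loss of liver mass or injury, so these transcripts are widely used as a sign of proliferation.

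Words known to be read by these regulators were searched for in the promoters of the module. RefSeq promoter windows of GRCm38.p6, each 300 bases long with 250 before the start and 50 after it, were matched for 28 of the 35 genes. The CHR words TTTGAA or TTCGAA were found on either strand in 10 of the 28, or 35.7%, against 21.7% of the 27025 genes with a window. The E2F words TTTGGCGC, TTTCCCGC or TTTCGCGC were found in 8, or 28.6%, against 2.12% of all genes. CCAAT, the word read by NF-Y, was found in 19, or 67.9%, against 41.1%. Over the 8568 tested genes with a window the shares were 15.9% for CHR, 3.93% for E2F and 42.9% for CCAAT. CHR words were in 8 of the 10 matched promoters of mitotic genes and 2 of the 7 of licensing genes, and E2F words were in 6 of the 7 of licensing genes and 1 of the 10 of mitotic genes. Among the 5 promoters of the clamp and nucleotide genes no CHR or E2F word was found, and CCAAT was found in 3. In 3 of the 4 roles fewer than 80% of the genes have a window, so these counts describe the matched promoters only. A match describes letters in the window and is not evidence of binding.

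The windows of 5 genes are printed on the strand of the gene, with every matched word in capitals. Those of Rrm2 and Rrm1, the subunits of ribonucleotide reductase, are shown because Rrm2 had the smallest p of the module. Rrm1 encodes its partner. Those of Cdk1 and Ccnb2 are examples that pair CHR with CCAAT, as all 10 module promoters with a CHR word do. That of Mcm6 is shown because it holds 3 E2F matches, a pair of which overlap. The Rrm2 window lies on the plus strand at chr12:24708004-24708303, that of Rrm1 on the plus strand at chr7:102441445-102441744, that of Cdk1 on the minus strand at chr10:69352863-69353162, that of Ccnb2 on the minus strand at chr9:70421505-70421804 and that of Mcm6 on the minus strand at chr1:128359656-128359955.
Rrm2: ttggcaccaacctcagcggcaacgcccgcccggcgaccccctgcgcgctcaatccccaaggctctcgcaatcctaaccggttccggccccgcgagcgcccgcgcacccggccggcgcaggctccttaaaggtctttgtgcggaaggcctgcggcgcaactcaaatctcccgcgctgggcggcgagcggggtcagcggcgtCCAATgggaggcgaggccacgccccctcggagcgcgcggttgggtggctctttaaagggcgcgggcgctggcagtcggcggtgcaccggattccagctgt
Rrm1: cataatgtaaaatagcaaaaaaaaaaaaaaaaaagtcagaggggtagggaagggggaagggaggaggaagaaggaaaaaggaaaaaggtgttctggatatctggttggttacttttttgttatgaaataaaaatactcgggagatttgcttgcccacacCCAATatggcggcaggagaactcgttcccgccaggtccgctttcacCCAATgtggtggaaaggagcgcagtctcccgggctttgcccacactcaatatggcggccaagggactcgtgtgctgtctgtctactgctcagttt
Cdk1: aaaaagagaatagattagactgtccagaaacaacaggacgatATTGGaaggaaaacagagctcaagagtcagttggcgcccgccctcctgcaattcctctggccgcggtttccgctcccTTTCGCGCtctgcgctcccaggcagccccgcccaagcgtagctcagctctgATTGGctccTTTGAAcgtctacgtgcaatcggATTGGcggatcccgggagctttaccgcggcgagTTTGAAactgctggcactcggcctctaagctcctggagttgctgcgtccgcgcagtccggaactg
Ccnb2: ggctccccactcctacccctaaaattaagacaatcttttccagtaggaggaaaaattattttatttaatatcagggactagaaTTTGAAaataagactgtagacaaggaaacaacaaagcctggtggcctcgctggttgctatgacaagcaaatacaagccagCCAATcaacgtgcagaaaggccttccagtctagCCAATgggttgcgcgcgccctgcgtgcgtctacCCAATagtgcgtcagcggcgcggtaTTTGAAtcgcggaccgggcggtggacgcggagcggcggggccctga
Mcm6: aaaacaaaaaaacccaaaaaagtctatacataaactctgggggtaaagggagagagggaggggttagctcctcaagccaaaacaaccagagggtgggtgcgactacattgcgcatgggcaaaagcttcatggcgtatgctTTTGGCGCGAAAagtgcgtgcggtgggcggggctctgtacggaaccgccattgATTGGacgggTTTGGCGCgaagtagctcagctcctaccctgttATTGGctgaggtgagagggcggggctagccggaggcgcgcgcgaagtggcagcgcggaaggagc
The CCAAT of Rrm2 begins 50 bases before the start, and those of Rrm1 91 and 45 bases before it. In Cdk1 the CHR words begin 71 and 15 bases before the start, with the E2F word at 131.

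Transcripts of the module were mostly scarce in the livers of both groups. Values are the authors' FPKM, which scale fragments for transcript length and sequencing depth, with 1 value per group and none per mouse. Of the 35 genes, 14 were under 1 FPKM in knockout livers and 13 in wildtype livers, and 5 were at 10 FPKM or more in each. The module median over the 35 genes, tested or not, was 1.31 FPKM in knockout livers and 1.63 FPKM in wildtype livers. Over all 23415 listed genes the median was lower, 0.492 FPKM in knockout livers and 0.461 FPKM in wildtype livers. Over tested genes with a ratio alone it was higher, 6.49 FPKM in knockout livers and 6.51 FPKM in wildtype livers. The 13 mitotic genes together summed to 6.62 FPKM in knockout livers and 7.22 FPKM in wildtype livers, less than the single gene Cdk4 in either. Across the 35 genes the order of the levels was nearly the same in both groups (Spearman's rho 0.97 across genes, which share the same libraries and are not replicates).

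**Figure D1:**
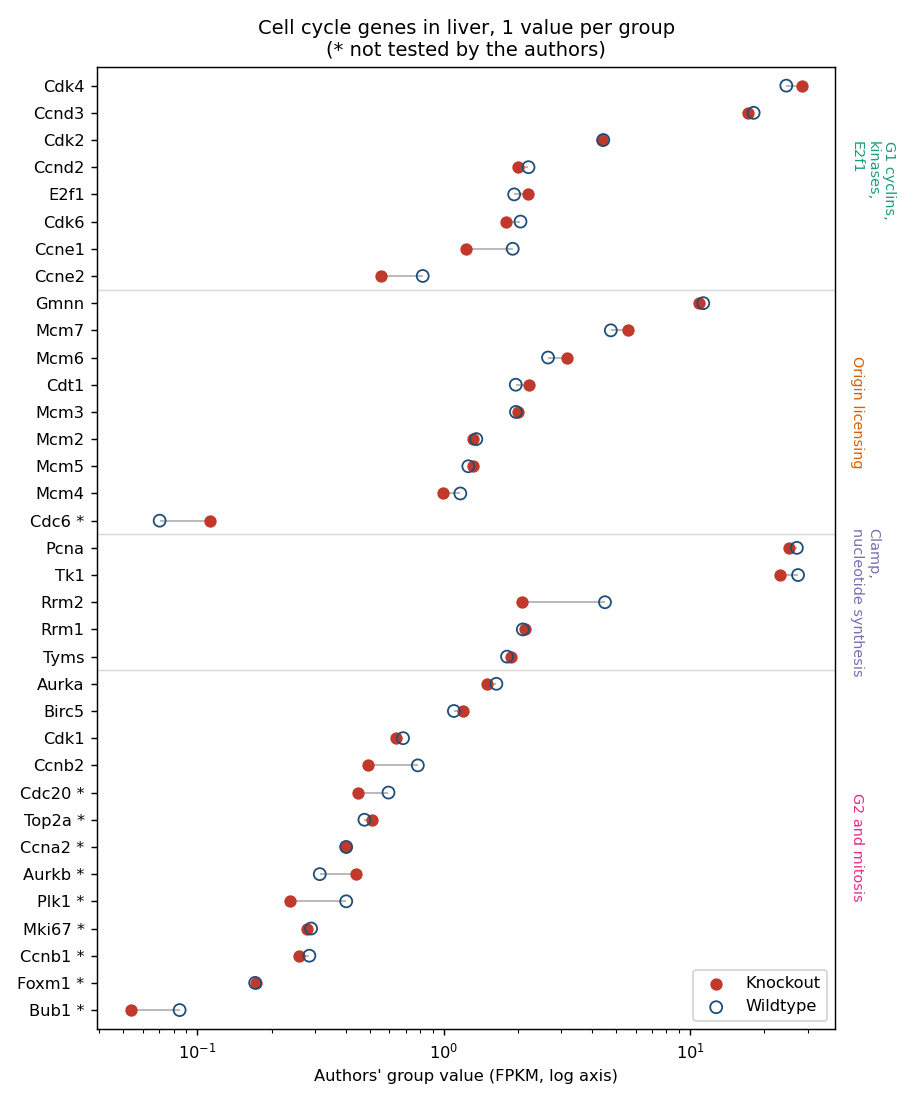
The authors' FPKM value of each of the 35 genes on a log axis, filled circles for knockout and open circles for wildtype, grouped by role and ordered by mean level, with 1 value per group and no error. Genes with an asterisk were not tested by the authors. Levels run from 0.0537 FPKM for Bub1 to 28.3 FPKM for Cdk4 in knockout livers, and the widest gap among genes above 1 FPKM is that of Rrm2.

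In the authors' deposited table no gene of the 25 had a q under 0.05, and 1.08% of all 11515 tested genes had one. At an unadjusted p under 0.05 there was 1 of 25, or 4%, and over all tested genes 5.29%, so the count in the module is close to the background. That gene was Rrm2, on the lower side, where 2.47% of all tested genes stood at that p. Each ratio is log2 of knockout over wildtype, and the standard error (SE) beside it is the ratio divided by the authors' z. This error belongs to the authors' model and is not a spread seen between mice. The median ratio of the 25 was -0.06, with 10 above 0 and 15 below, against -0.0012 over all tested genes. Scaling both groups to equal sums of listed FPKM lowers every ratio by 0.19, after which 3 of the 25 were above 0 and 22 below. The absolute ratio was under 0.3 for 21 of them, or 84%, and for 74.4% of the 11456 tested genes that have a ratio. None of the 35 is on the authors' short list of 95 differential genes. The smallest absolute log2 ratio on that list is 1.01, a size that only Rrm2 of the 25 exceeds.

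Rrm2 encodes the small subunit of ribonucleotide reductase, the enzyme that makes deoxynucleotides for replication, and its level in cultured cells peaks in S phase. It lies on chromosome 12 at 24708254 to 24714146 (mm10). It stood at 2.07 FPKM in knockout livers and 4.51 FPKM in wildtype livers. The log2 ratio was -1.12 ± 0.34 (SE), a fold of 0.460, with a 95% interval of -1.78 to -0.46. The p was 0.000953 and q 0.0757 in the authors' deposited table, which does not pass. It ranked 145 by p among the 11515 tested genes, and with the same error an absolute ratio of 1.17 would have been needed for a call. After scaling to equal sums, which moves the median of all tested genes to -0.20, the ratio was -1.31 and passed at q = 0.00987.

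The partners of Rrm2 in nucleotide supply had ratios near 0. Rrm1, the large subunit that binds the regulatory nucleotides, was at 2.13 FPKM in knockout livers and 2.09 FPKM in wildtype livers (log2 ratio 0.03 ± 0.31, 95% interval -0.58 to 0.63). The upper part of the Rrm2 interval overlaps the lower part of this one, and the difference between the subunits was not tested. Tyms, thymidylate synthase, was at 1.87 FPKM in knockout livers and 1.81 FPKM in wildtype livers (0.05 ± 0.33). Rrm2b, the small subunit used outside S phase, was at 0.640 FPKM in knockout livers and 0.563 FPKM in wildtype livers (0.18 ± 0.43). Dut, which removes dUTP, was at 4.52 FPKM in knockout livers and 4.14 FPKM in wildtype livers. Rrm2b and Dut were named after their values were seen. Each of these 4 intervals includes 0, so neither a difference nor its absence is shown.

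Pcna, the sliding clamp of the replicative polymerases and of repair synthesis, was at 25.2 FPKM in knockout livers and 27.1 FPKM in wildtype livers. Its ratio of -0.11 ± 0.24 has a 95% interval of -0.57 to 0.36. Tk1, the cytosolic thymidine kinase of the salvage pathway, was at 23.1 FPKM in knockout livers and 27.4 FPKM in wildtype livers (-0.24 ± 0.53). The error of Tk1 is larger than that of Pcna, 0.53 against 0.24, at a like level. In the deposited table Tk1 carries the same locus as Afmid, arylformamidase, an enzyme of tryptophan breakdown on the opposite strand, which was at 44.1 FPKM in knockout livers and 64.8 FPKM in wildtype livers. The labels do not say whether strand was kept, so reads of the overlapping ends cannot be assigned to either, and the level of Tk1 is uncertain.

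All 8 genes that act at the G1 decision were tested, and none passed. Cdk4, the kinase of D-type cyclins, was the highest, at 28.3 FPKM in knockout livers and 24.5 FPKM in wildtype livers (log2 ratio 0.21 ± 0.23, 95% interval -0.25 to 0.67). Its cyclin Ccnd3 was at 17.2 FPKM in knockout livers and 18.1 FPKM in wildtype livers (-0.07 ± 0.30). Ccnd2, another D-type cyclin, was at 2.0 FPKM in knockout livers and 2.21 FPKM in wildtype livers (-0.14 ± 0.28). Cdk6, the other kinase of D-type cyclins, was at 1.79 FPKM in knockout livers and 2.05 FPKM in wildtype livers. These values differ by less than their errors.

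Cyclin E had larger ratios with larger errors. Ccne1 was at 1.22 FPKM in knockout livers and 1.90 FPKM in wildtype livers (-0.64 ± 0.42, p = 0.127 in the authors' deposited table), the second smallest p of the module. Ccne2 was at 0.558 FPKM in knockout livers and 0.821 FPKM in wildtype livers (-0.56 ± 0.99), and it shares its listed locus with Ints8. Their kinase Cdk2 was at 4.38 FPKM in knockout livers and 4.44 FPKM in wildtype livers (-0.02 ± 0.40). E2f1, an activating E2F factor, was at 2.20 FPKM in knockout livers and 1.93 FPKM in wildtype livers (0.19 ± 0.35).

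The 8 tested licensing genes of 9 had log2 ratios between -0.24 and 0.26, and none passed. Licensing means the loading of the MCM helicase, a ring of the 6 proteins encoded by Mcm2 to Mcm7, by CDC6 and CDT1, which geminin opposes after S phase begins. The MCM genes ranged from 0.991 FPKM for Mcm4 to 5.61 FPKM for Mcm7 in knockout livers, and from 1.17 FPKM for Mcm4 to 4.76 FPKM for Mcm7 in wildtype livers. Their ratios ran from -0.24 to 0.26, with 4 above 0 and 2 below (2 and 4 after scaling to equal sums), and all 6 of the 95% intervals lay within 1 of 0 on the log2 scale. Mcm6 was at 3.16 FPKM in knockout livers and 2.65 FPKM in wildtype livers (0.26 ± 0.31), and Mcm4 gave -0.24 ± 0.38.

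Gmnn, which encodes geminin, was the highest licensing gene, at 10.8 FPKM in knockout livers and 11.3 FPKM in wildtype livers (-0.06 ± 0.30, 95% interval -0.65 to 0.52). Cdt1 was at 2.22 FPKM in knockout livers and 1.96 FPKM in wildtype livers (0.18 ± 0.36). Cdc6 was not tested, at 0.113 FPKM in knockout livers and 0.0703 FPKM in wildtype livers (0.68 ± 0.98). The inhibitor of licensing was listed above both loaders in each group.

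**Figure D2:**
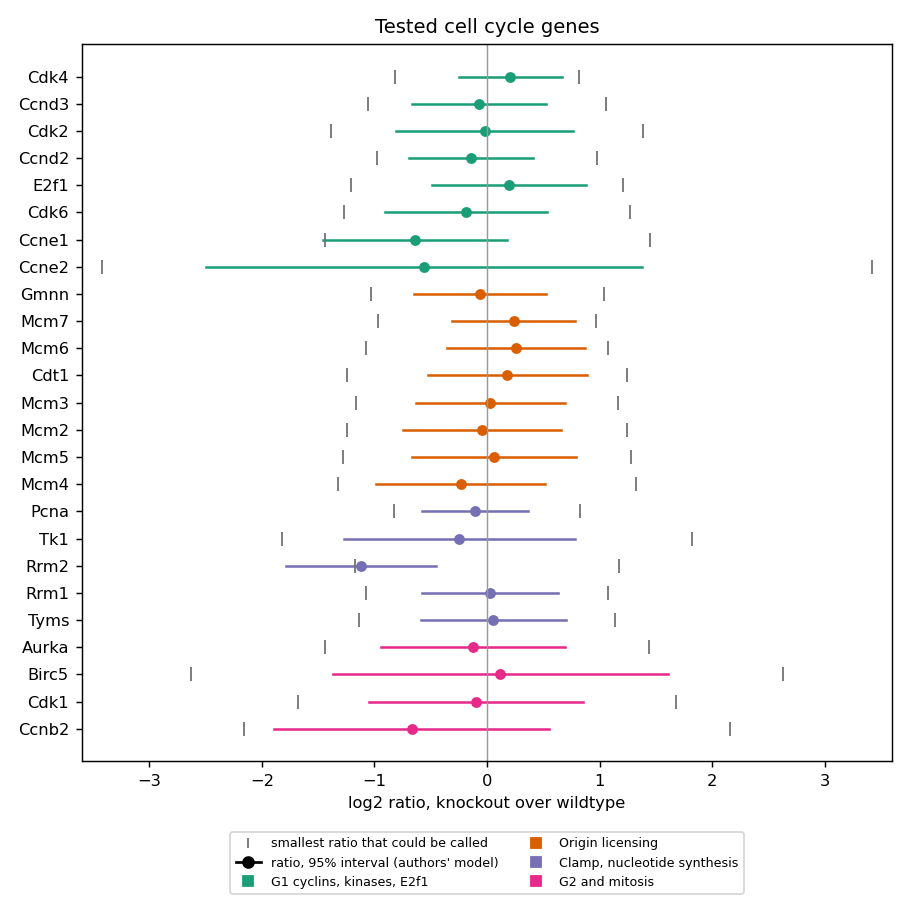
Log2 ratio of knockout over wildtype for the 25 tested genes (points) with its 95% interval from the authors' model (lines), coloured by role, and the smallest ratio that could have been called at each gene's error (grey ticks). Rrm2 at -1.12 lies just inside its tick at 1.17, and its interval is the only one of the 25 that leaves out 0.

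The mitotic genes were the least abundant role, and 4 of the 13 were tested. Aurka, the kinase of spindle poles, was the highest, at 1.5 FPKM in knockout livers and 1.63 FPKM in wildtype livers (log2 ratio -0.13 ± 0.42, 95% interval -0.94 to 0.69). Cdk1, the kinase that starts mitosis, was at 0.637 FPKM in knockout livers and 0.683 FPKM in wildtype livers (-0.10 ± 0.48). Its cyclin Ccnb2 was at 0.493 FPKM in knockout livers and 0.784 FPKM in wildtype livers (-0.67 ± 0.62). Birc5, which encodes survivin of the chromosomal passenger complex, was at 1.19 FPKM in knockout livers and 1.10 FPKM in wildtype livers (0.12 ± 0.76).

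The remaining 9 mitotic genes were not tested and stood between 0.0537 and 0.509 FPKM in knockout livers and between 0.0847 and 0.596 FPKM in wildtype livers. Mki67, whose protein Ki-67 is the common histological mark of cycling cells, was at 0.278 FPKM in knockout livers and 0.289 FPKM in wildtype livers. Top2a, the topoisomerase that untangles sister chromatids, was at 0.509 FPKM in knockout livers and 0.476 FPKM in wildtype livers. Ccna2, the cyclin of S phase and G2, was at 0.400 FPKM in knockout livers and 0.401 FPKM in wildtype livers. These 3 differed between the groups by a log2 ratio of at most 0.10 in size, with errors of 0.41 for Mki67, 0.44 for Top2a and 0.97 for Ccna2.

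Plk1, a kinase of mitotic entry, was at 0.239 FPKM in knockout livers and 0.402 FPKM in wildtype livers. Bub1, a kinase of the spindle checkpoint, was at 0.0537 FPKM in knockout livers and 0.0847 FPKM in wildtype livers. Both values were lower in knockout livers, and neither gene was tested. Ccnb1, a main mitotic cyclin, was at 0.259 FPKM in knockout livers and 0.285 FPKM in wildtype livers, and Cdc20, the activator of the anaphase-promoting complex, at 0.448 FPKM in knockout livers and 0.596 FPKM in wildtype livers. Aurkb, the kinase of the passenger complex, was at 0.438 FPKM in knockout livers and 0.314 FPKM in wildtype livers. Foxm1, the transcription factor of the mitotic wave, was at 0.173 FPKM in knockout livers and 0.172 FPKM in wildtype livers. The errors of these 6 ratios run from 0.66 for Foxm1 to 1.70 for Bub1. The widest ratio is that of Plk1 at -0.75 ± 0.68, and each of the 6 intervals includes 0.

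The size of change that the deposited test could have called differed between the genes. The smallest absolute ratio that could be called at each gene's error, taken from the smallest z of a called gene (3.46), was 0.81 for Cdk4 and 0.83 for Pcna, 1.24 at the median of the 25 genes, and 3.42 for Ccne2, 1 of the genes with a shared locus. At levels like that of Ccne2 it was 1.68 for Cdk1 and 2.16 for Ccnb2. Over all tested genes the median was 0.97. For 18 of the 25 genes, or 72.0%, the 95% interval lay within 1 of 0, which leaves out a doubling or a halving under the authors' model, and for all tested genes with a ratio this share was 74.2%. In bulk tissue, fewer cycling cells and less RNA per cycling cell cannot be told apart.

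**Figure D3:**
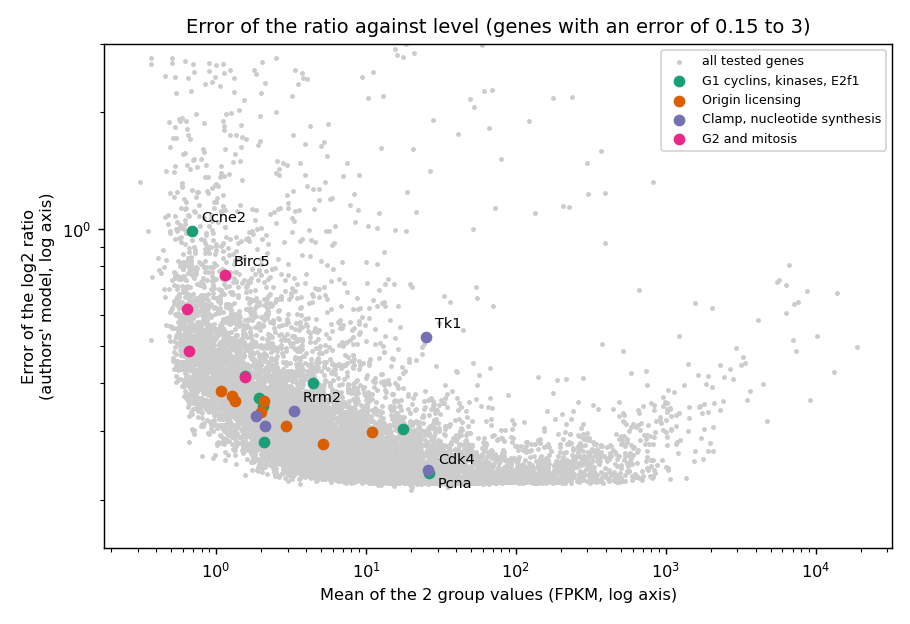
Error of the log2 ratio in the authors' model against the mean of both group values in FPKM, both on log axes, for all tested genes with an error of 0.15 to 3 (grey) and the 25 tested genes of the module (coloured by role). The errors of the module run from 0.23 for Cdk4 to 0.99 for Ccne2, and Tk1 at 0.53 stands above Cdk4 and Pcna, which have a like level.

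For 8 of the 35 genes the deposited locus is shared with another gene, so that the listed coordinates may not be the gene's own. These are Tk1, Ccne2, Ccnd2, Ccnd3, Ccna2, Cdc20, Mcm7 and Foxm1. Mcm7 shares its locus only with the microRNA genes Mir106b, Mir25 and Mir93, listed at 0 in both groups. For the 20 tested genes with a locus of their own the median ratio was -0.03. Elovl1, which shares its locus with Cdc20, was at 30.2 FPKM in knockout livers and 25.8 FPKM in wildtype livers. Exosc9, which shares its locus with Ccna2, was at 8.21 FPKM in knockout livers and 7.48 FPKM in wildtype livers. Both lie far above the cell cycle genes beside them. Tk1 and Birc5 lie 1.17 and 1.14 Mb from Enpp7 on chromosome 11, and neither passed.

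Other genes of the same pathways, 110 in 4 lists, also held no call. Of these, 71 were tested. In the authors' deposited table a q under 0.05 was given to 0, against 1.08% of all tested genes, and 2 had an unadjusted p under 0.05, or 2.82% against 5.29%. The median ratio of the 71 was 0.01, with 39 above 0 and 32 below (14 and 57 after scaling to equal sums). The 2 genes were Wee1 and E2f8, and they lay on opposite sides.

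Wee1 encodes the kinase that holds CDK1 inactive before mitosis, and its transcript in mouse liver is known to follow the circadian clock. It was at 3.81 FPKM in knockout livers and 6.93 FPKM in wildtype livers (log2 ratio -0.86 ± 0.27, 95% interval -1.38 to -0.34). The q was 0.0873 in the authors' deposited table, and 0.00701 after scaling to equal sums, where it passed. E2f8, an E2F repressor known in mice for its part in hepatocyte polyploidy, was at 2.37 FPKM in knockout livers and 1.30 FPKM in wildtype livers (0.87 ± 0.35, q = 0.489 in the authors' deposited table).

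Of the 16 tested genes among other cyclins, E2F factors and pocket proteins, 4 had ratios above 0 and 12 below (2 and 14 after scaling to equal sums), with a median of -0.11. Ccnd1, the main D-type cyclin of regenerating liver, was named after its value was seen, and it was at 9.88 FPKM in knockout livers and 12.6 FPKM in wildtype livers (-0.35 ± 0.23). Of the 7 tested CDK inhibitors and WEE1-type kinases, 5 were above 0 and 2 below (3 and 4 after scaling to equal sums). Cdkn1a, which encodes the p21 inhibitor, also named after its value was seen, was at 0.851 FPKM in knockout livers and 1.28 FPKM in wildtype livers (-0.59 ± 0.50).

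Of the 37 tested genes of replication, 25 were above 0 and 12 below (8 and 29 after scaling to equal sums), with a median of 0.04 and none at an unadjusted p under 0.05. Rfc2, a subunit of the clamp loader that puts PCNA on DNA, had the smallest p, at 20.1 FPKM in knockout livers and 15.03 FPKM in wildtype livers (0.42 ± 0.24). Of 34 further mitotic genes 11 were tested, with a median of -0.03. Pttg1, which encodes securin, had the smallest p of these, at 41.1 FPKM in knockout livers and 35.2 FPKM in wildtype livers (0.22 ± 0.26).

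**Figure D4:**
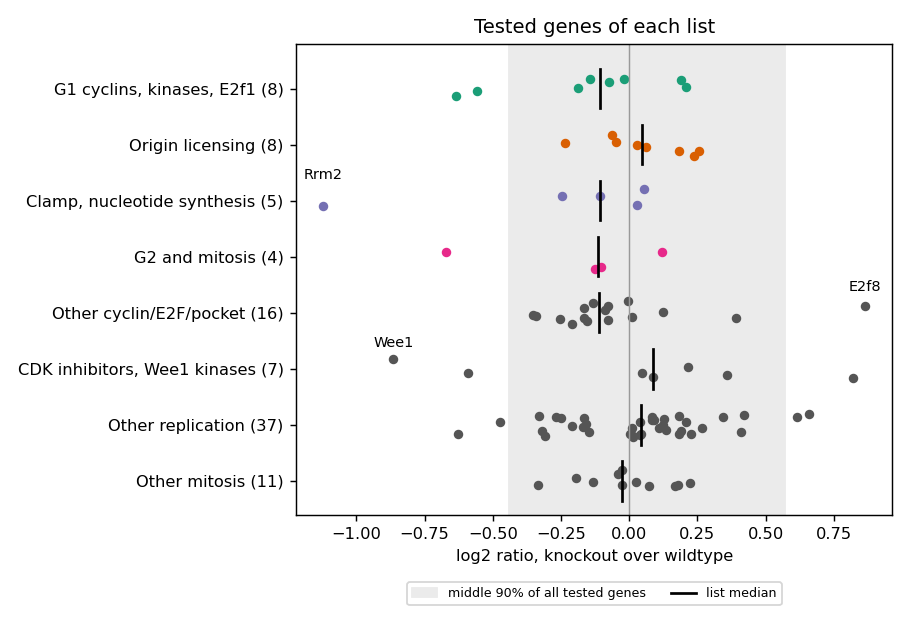
Log2 ratios of knockout over wildtype for the tested genes of the 4 roles of the module (coloured) and of the 4 further lists (dark grey), with the number tested in brackets, the list median as a bar and the middle 90% of all tested genes (-0.44 to 0.57) shaded. The named points Rrm2, Wee1 and E2f8 are those with an unadjusted p under 0.05.

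Markers of other cells that a liver sample can hold were set beside these values. The 9 neutrophil markers in the table summed to 108 FPKM in knockout livers and 6.21 FPKM in wildtype livers. All 7 tested had ratios above 0 and an unadjusted p under 0.05 in the authors' deposited table, and 4 passed. The 9 macrophage markers summed to 421 FPKM in knockout livers and 266 FPKM in wildtype livers. All 9 had ratios above 0, 6 had an unadjusted p under 0.05 and 2 passed. Over all tested genes 0.573% passed as higher, and 5.29% had an unadjusted p under 0.05 in either direction. After scaling to equal sums the 4 neutrophil calls held, and of the macrophage markers 0 passed (1, Marco, after quantile normalization). The 6 markers of dividing myeloid precursors summed to 37.1 FPKM in knockout livers and 7.33 FPKM in wildtype livers, and none of the 4 tested passed. Cebpe supplied most of the wildtype sum, at 8.95 FPKM in knockout livers and 6.50 FPKM in wildtype livers (log2 ratio 0.46 ± 0.30). Prtn3 supplied most of the knockout sum, at 26.0 FPKM in knockout livers and 0.697 FPKM in wildtype livers, with an error of 17.1 on the log2 scale and a listed locus shared with many genes. Mpo was at 0.586 FPKM in knockout livers and 0.0321 FPKM in wildtype livers (q = 0.102 in the authors' deposited table). It passed as higher after quantile normalization, and not after scaling to equal sums or to the same upper quartile. Ms4a3 was at 0.0982 FPKM in knockout livers and listed at 0 in wildtype livers. Of 8 erythroid markers 6 were tested and none passed, with sums of 150 FPKM in knockout livers and 114 FPKM in wildtype livers. The 9 markers of T, NK and B cells summed to 3.29 FPKM in knockout livers and 4.17 FPKM in wildtype livers, with no call among 3 tested. Endothelial and stellate markers, 6 each, had no call (1 stellate marker, Reln, passed as lower after scaling to equal sums). An unadjusted p under 0.05 was given to 2 stellate markers, Reln and Lrat, both lower in knockout livers, and to 0 endothelial markers. Of 5 cholangiocyte markers Spp1 rose. The part of these cells in the values of the module was not tested.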

How the data were processed

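Liver RNA of 3 knockout and 3 wildtype mice was sequenced from TruSeq libraries, per the labels' protocols. Per the submitters' processing notes, reads were aligned with Bowtie2 and the build was mm10, with the counting program not given in the sources used here. The authors deposited 1 value per group, and the file headers name no unit: the layout is that of a Cuffdiff table, so the values were taken as the authors' FPKM. The deposited log2 ratio has wildtype on top, and it was recomputed with knockout on top. The p-value and q-value are those of the authors' deposited table, and a gene is called at q under 0.05. The authors' test statistic (unit other: a z) gave each standard error as the log2 ratio over z. Starts were raised by 1 to count from 1.

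Since no value per mouse was used, the planned limma test was replaced by the authors' test, as fixed for this case. Depth is unknown, so no counting interval is given. Numbers in the sample names are the only sign that libraries are of separate mice, and the p-values may measure technical spread. The module, the further lists and the markers were chosen with earlier results of these data known. Every module gene is named, and of the further lists those past a threshold and the smallest p of each. Rrm2b, Dut, Ccnd1 and Cdkn1a of the further lists were named outside this rule, after their values were seen. Alternatives were another scaling, quantile normalization, a minimum of 1 FPKM, other thresholds and pseudocounts of 0.5 and 1. Where scaling was changed, p was recomputed from the authors' error and adjusted by Benjamini-Hochberg over 11515 genes. Scripts were tested on simulated data, with Python 3.11.15, pandas 2.3.3 and scipy 1.17.1. Columns of samples outside the series numbered 0.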

Additional observations from a re-analysis of the deposited data

How the results depend on the processing

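The count of 0 module genes called (authors' deposited q, with 1 at an unadjusted p under 0.05) stayed at 0 after upper-quartile scaling, quantile normalization and a minimum of 1 FPKM, and was 1, Rrm2, after scaling to equal sums of listed FPKM, at an unadjusted p under 0.05 and at q under 0.1. The count of 0 in the further lists stayed at 0 under the same 3 settings. It was 1 (Wee1) with equal sums, 2 at an unadjusted p and 1 at q under 0.1. Over all 11515 tested genes equal sums called 1.64%, 49 higher and 140 lower. The main setting called 1.08%, 66 higher and 58 lower. At q under 0.1 the share over all tested genes was 1.42%, and at an unadjusted p under 0.05 it was 5.29%. The sums of listed FPKM were 646306 for knockout and 564749 for wildtype livers, so equal sums lower every ratio by 0.19. Apoa1 supplied 16007 FPKM of the knockout sum and 11662 FPKM of the wildtype sum, and albumin enters both at 0. Scaling to the same upper quartile raises every ratio by 0.01. The module median was then -0.26 and that of the further lists -0.18, and they moved by less than 0.1 under the other settings. Small ratios changed sign with equal sums: E2f1 to -0.0036, Cdt1 to -0.01 (-0.0135), Mcm3 to -0.17, Mcm5 to -0.13, Rrm1 to -0.17, Tyms to -0.14 and Birc5 to -0.076. After quantile normalization Mcm3 was at -0.0069, Mcm5 at -0.0049 and Rrm1 at -0.01 (-0.0113). No paired analysis was possible because the deposited values are 1 per group, and leaving out replicates was not run for the same reason. Of the 13 mitotic genes 9 were not tested, so no call was possible for them.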
